A study of Mus musculus with 17 samples.

Results

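The embryonic and adult globin genes of the mouse were examined in blasts of the TgSpi1 erythroleukaemia model. The 8 members, Hbb-bs, Hbb-bt, Hbb-bh1, Hbb-bh2, Hbb-y, Hba-a1, Hba-a2 and Hba-x, were chosen by symbol and each had 1 row among the 26029 genes of the table of model 1 and the 24659 genes of the table of model 2. Mice are named by the stage and number of their sample titles, such as leukemic_26. RNA-seq had been performed on erythroid blasts kept in culture with erythropoietin (EPO), 1 library for each of 17 mice. All mice carried the Spi1 transgene, which makes erythroid progenitors overexpress the transcription factor SPI1 and blocks their differentiation. Model 1, on a mixed DBA2J and FVB/N background, comprised 4 preleukaemic TgSpi1FA+/+ mice with intact Fanca (preleukemic_445, preleukemic_479, preleukemic_451, preleukemic_138), 3 preleukaemic TgSpi1FA-/- mice that lacked Fanca, a gene of the Fanconi anaemia pathway (preleukemic_77, preleukemic_224, preleukemic_40), and 3 leukaemic TgSpi1FA-/- mice (leukemic_26, leukemic_28, leukemic_39). Model 2, on DBA2J, comprised 4 preleukaemic (preleukemic_633, preleukemic_663, preleukemic_812, preleukemic_837) and 3 leukaemic TgSpi1FA+/+ mice (leukemic_601, leukemic_606, leukemic_921), whose leukaemia had emerged after blood transfusions. Ages were not given. The model 1 libraries started from 400 ng of RNA, fragmented for 8 min, and the model 2 libraries from 300 ng, fragmented for 2 min, so that strain, genotype and protocol cannot be told apart between the models. The source names, and the column names in the table, of preleukemic_77, preleukemic_224 and preleukemic_40 call them leukaemic, whereas their titles and cell type labels give the preleukaemic stage, under which they were grouped.

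Haemoglobin joins alpha-like and beta-like chains that come from separate gene clusters, and the genes of each cluster are used in turn during development. In the mouse, primitive red cells of the yolk sac use the beta-like genes Hbb-bh1 and Hbb-y and the alpha-like gene Hba-x, whereas definitive red cells of the fetal liver and adult marrow use Hbb-bs, Hbb-bt, Hba-a1 and Hba-a2. In definitive cells the embryonic beta-like genes are held silent by repressors such as BCL11A and ZBTB7A, and the adult genes are driven by KLF1 and GATA1. A progenitor arrested before its last divisions makes little globin RNA compared with a reticulocyte. DBA2J mice carry the diffuse haplotype of the beta cluster, whose adult genes, Hbb-b1 and Hbb-b2, are not the single and t alleles Hbb-bs and Hbb-bt of the reference genome. Reads of these mice were therefore counted on reference genes of another haplotype, and which haplotype each mouse of the mixed background carried was not tested.

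The beta-like genes lie on the minus strand of chromosome 7 (GRCm38, GENCODE), in the order Hbb-y from 103851749 to 103853216, Hbb-bh1 from 103841637 to 103843164, Hbb-bh2 from 103839124 to 103840520, Hbb-bs from 103826534 to 103828096 and Hbb-bt from 103812524 to 103813996. The alpha-like genes lie on the plus strand of chromosome 11, with Hba-x from 32276400 to 32278116, Hba-a1 from 32283511 to 32284465 and Hba-a2 from 32296489 to 32297298. Each of the 8 genes has 3 exons, with a coding length of 441 bases in the beta-like and 426 bases in the alpha-like genes. RefSeq promoters of GRCm38.p6 were given for 7 of the 8 genes. The 250 bases before the RefSeq start are shown for both adult beta-like genes, which are nearly identical in their coding parts but differed in their counts, and for the embryonic gene Hbb-y. The windows are chr7:103827929-103828178 for Hbb-bs, chr7:103813924-103814173 for Hbb-bt and chr7:103853208-103853457 for Hbb-y, all on the minus strand. Further GENCODE transcript models of Hbb-bs and Hbb-bt begin inside these windows. Capitals mark the CACCC box, the GATAA motif, the CCAAT box and the TATA-like letters TATAA or ATAAA on either strand.
Hbb-bs: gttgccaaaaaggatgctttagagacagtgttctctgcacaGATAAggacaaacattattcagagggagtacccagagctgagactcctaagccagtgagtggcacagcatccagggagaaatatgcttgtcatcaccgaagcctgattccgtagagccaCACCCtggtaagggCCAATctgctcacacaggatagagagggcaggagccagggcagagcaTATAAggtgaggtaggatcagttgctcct
Hbb-bt: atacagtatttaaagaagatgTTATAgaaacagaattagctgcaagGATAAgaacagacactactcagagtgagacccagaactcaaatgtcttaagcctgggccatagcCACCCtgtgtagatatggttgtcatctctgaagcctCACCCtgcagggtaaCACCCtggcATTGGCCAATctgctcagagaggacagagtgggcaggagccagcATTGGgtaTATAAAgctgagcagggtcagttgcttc
Hbb-y: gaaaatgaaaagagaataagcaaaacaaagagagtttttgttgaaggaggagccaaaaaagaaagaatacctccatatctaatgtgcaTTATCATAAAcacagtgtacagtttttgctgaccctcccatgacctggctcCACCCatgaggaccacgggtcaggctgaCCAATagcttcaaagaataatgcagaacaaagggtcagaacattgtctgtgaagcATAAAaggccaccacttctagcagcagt

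The CACCC box, to which KLF1 binds, occurred in 52.0% of the 32851 promoters of the same length, the GATAA motif of GATA factors in 22.6%, the CCAAT box in 33.8%, the letters TATAA in 22.8% and the letters ATAAA in 37.3%. A window with TATAAA holds both of the last, which overlap there, and GATAAA holds a GATAA motif and the letters ATAAA. Hbb-bt held 3 CACCC, at 89, 104 and 140 bases before the start, whereas Hbb-bs and Hbb-y held 1 each, at 90 and 111 bases. GATAA occurred once in each of the 7 promoters. GAGGAA, letters of the site that SPI1 and other ETS factors bind, occurred in 23.3% of all promoters and in none of the 7, which says only that these letters are not in these windows. The promoters of Hbb-bs and Hbb-bt were identical at 69.3% of aligned bases, those of Hba-a1 and Hba-a2 at 97.6%. The coding sequences of Hbb-bs and Hbb-bt differed at 1 of 441 bases and those of Hba-a1 and Hba-a2 at 1 of 426, whereas Hbb-bh1 and Hbb-y were identical at 76.4% of aligned bases. Of all 50-base stretches of the transcript, 65.8% in Hbb-bs and 58.3% in Hbb-bt also occurred in the other gene, and 67.5% in Hba-a1 and 86.9% in Hba-a2. No stretch of Hbb-bh1, Hbb-bh2, Hbb-y or Hba-x occurred in another member, so counts within each adult pair are uncertain and those of the embryonic genes are not affected by this sharing.

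Total counts ranged from 29964576 to 40514205 per library, and 3 counts, the limit that a count of 0 allows, corresponded to between 0.0741 and 0.0984 CPM, counts per 1000000 counts of the library as scaled by the trimmed mean of M values (TMM). The blasts had the erythroid markers of their label, with 11 of 11 detected markers at 1 CPM or more on average in each group and Tfrc, the transferrin receptor, as the most abundant. Fanca ranged from 28.2 to 83.5 CPM in the TgSpi1FA+/+ mice of model 1 and from 0.615 to 2.30 CPM in both TgSpi1FA-/- groups. Spi1 had 3.88 CPM in leukaemic mouse leukemic_39 and 219.7 in leukemic_28, both below each other mouse of model 1 (at least 467.1 CPM). In model 2, with another strain and protocol, it had at least 102.7 CPM in each library. Thus leukemic_39 stood apart from the transgene's label, and the leukaemic changes of model 1 are also given without it for the members and for the regulators and markers that were called. The libraries of preleukemic_445 and preleukemic_479 were closer to each other (chi-square per degree of freedom of 8.53 over their counts) than any other pair of 1 group in both tables (at least 114), so values with both summed into 1 library were also computed. Since these are bulk samples, fewer cells with a transcript and less transcript per cell cannot be told apart.

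The 8 globin genes took between 0.105% (leukemic_606) and 0.756% (preleukemic_812) of all counts of a library. Levels of different genes were set side by side in CPM per kb of transcript, which allows for transcript length. This scale does not allow for the stretches shared within each adult pair, so the ranks of the adult genes are uncertain. On it Hbb-bs was the highest member in 4 of the 5 groups, with 3267 ± 1445 (SD, n = 4) in the TgSpi1FA+/+ and 2154 ± 520 (SD, n = 3) in the TgSpi1FA-/- preleukaemic mice of model 1. In the leukaemic TgSpi1FA-/- mice the highest mean was that of Hbb-bh1, with 1517 ± 1485 CPM per kb (SD, n = 3), followed by Hbb-bs with 644 ± 828. The ranges of these neighbours overlapped, and Hbb-bh1 exceeded Hbb-bs in 2 of the 3 mice. Hbb-bt and Hba-a1 came next to Hbb-bs in the other groups, with overlapping ranges between Hbb-bt and Hba-a1 in each. Hba-a1 lay above the next lower member without overlap in 4 groups, and so did Hbb-bt in the TgSpi1FA-/- preleukaemic mice. There the next member, Hbb-y, had 0.650 ± 0.528 CPM per kb (SD, n = 3) against 310.1 ± 216 for Hbb-bt. Hba-a2 was listed at 0 to 4 counts in each library, while Hba-a1, of which it shares most stretches, had 696 to 16925.

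**Figure D1:**
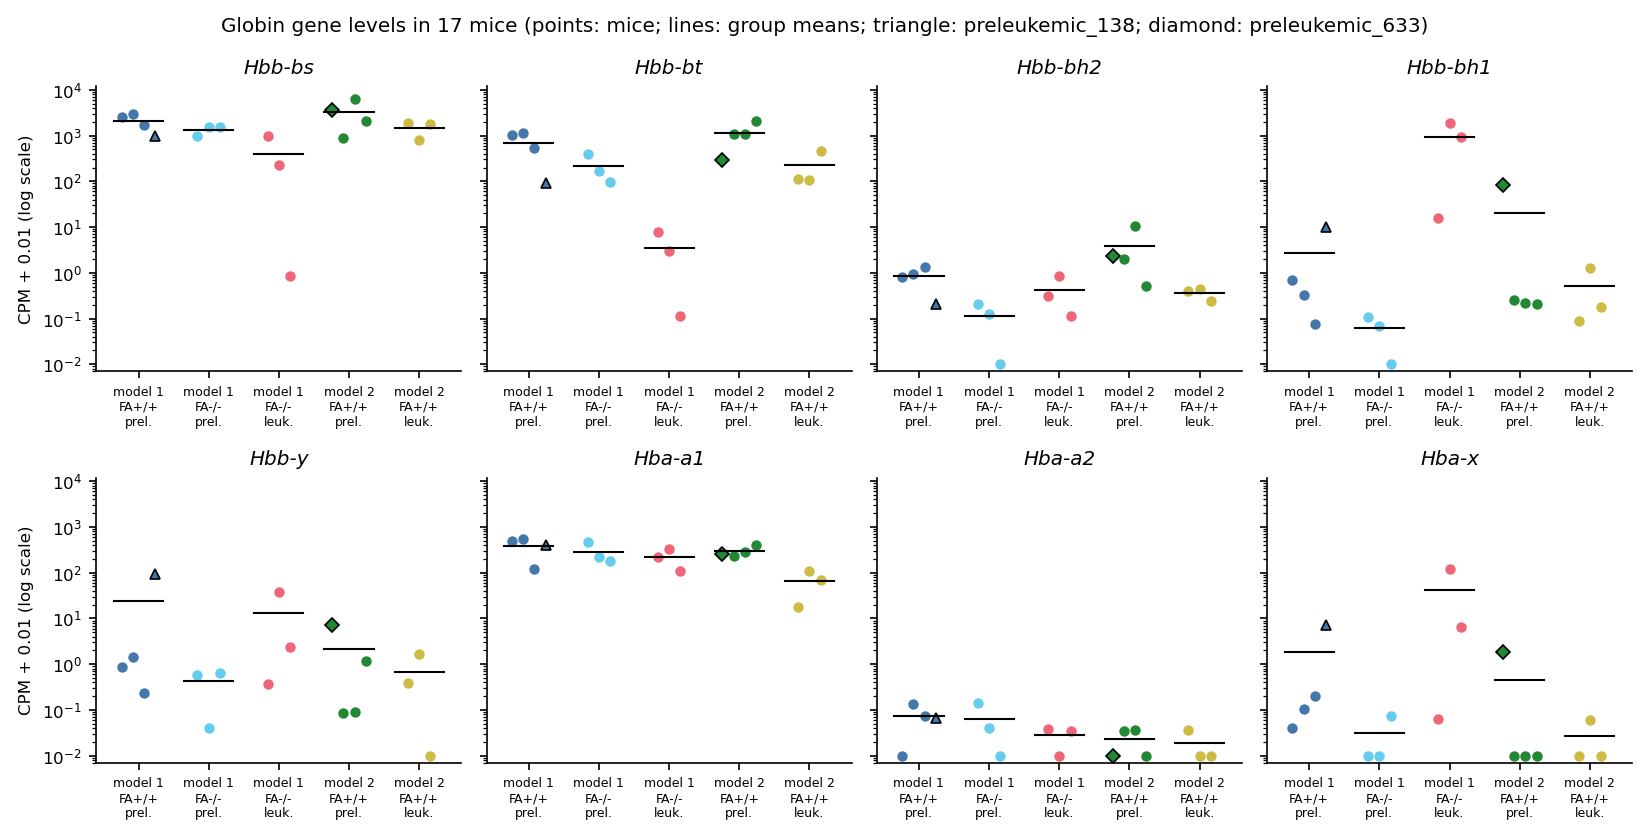
Level of each globin gene in 17 mice, as CPM + 0.01 on a log axis, by group (prel., preleukaemic; leuk., leukaemic; FA+/+ and FA-/-, TgSpi1FA+/+ and TgSpi1FA-/-). Points are mice and lines are group means; Hbb-bh1 is highest in leukemic_28 and leukemic_39 of the leukaemic TgSpi1FA-/- group, and preleukemic_138 (triangle) and preleukemic_633 (diamond) lie above the other mice of their groups for Hbb-bh1, Hbb-y and Hba-x.

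The first comparison asked which globin genes differ between leukaemic and preleukaemic TgSpi1FA-/- cells. Of the 8 members, 7 passed the filter on low counts and 2 were called, Hbb-bh1 higher and Hbb-bt lower in leukaemic cells, where a call needs a Benjamini-Hochberg adjusted p under 0.05 from edgeR's quasi-likelihood test and a fold change of at least 1.5. Over all 13393 genes tested, 13.3% were called, 6.82% higher and 6.49% lower. DESeq2's Wald test called 3 members and 22% of the 13262 genes it gave an adjusted p. The levels of both groups did not overlap for 2 of the 7 members, against 38.7% of all genes tested.

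Hbb-bh1, the embryonic beta-like gene used first in the yolk sac, had 16.1, 1836 and 938 CPM in leukaemic mice leukemic_26, leukemic_28 and leukemic_39 (588, 71844 and 36960 counts). In the preleukaemic TgSpi1FA-/- mice preleukemic_77, preleukemic_224 and preleukemic_40 it had 0.0985, 0.0585 and 0 CPM (3, 2 and 0 counts). All 3 leukaemic mice were above all 3 preleukaemic mice, and leukemic_26 was far below leukemic_28 and leukemic_39. The part of their driver mutations, in Kit for leukemic_26 and in Nras for leukemic_28 and leukemic_39, was not tested. The mean was 929.9 ± 910 CPM in leukaemic against 0.0523 ± 0.0495 CPM in preleukaemic cells (SD, n = 3 each), a log2 fold change of 14.02 (SE 2.81, adjusted p = 0.0176 from edgeR). As the fitted value depends on the prior count for a gene this close to 0, the pooled ratio was also taken, and it was 18801-fold with a 95% counting interval from 8056 to 57903, which covers counting error only. The adjusted p was 0.0565, 0.0728, 0.0582 and 0.0515 without preleukemic_77, preleukemic_224, preleukemic_40 and leukemic_28, and 0.0397 without leukemic_39. With no filter on low counts the adjusted p was 0.0123. Over 14 alternatives, 10 of which kept the call, it ranged from 3.23e-11 with DESeq2 to 0.0728. Among the 10 is the alternative with no fold change minimum, which repeats the main fit and cannot lose a call.

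Hbb-y, the embryonic beta-like gene of later primitive red cells, had 0.356, 37.6 and 2.41 CPM in leukemic_26, leukemic_28 and leukemic_39 and 0.558, 0.0292 and 0.647 CPM in preleukemic_77, preleukemic_224 and preleukemic_40. The groups overlapped, since leukemic_26 lay below preleukemic_77 and preleukemic_40. The log2 fold change of 5.03 (SE 2.54) did not pass the test (adjusted p = 0.203 from edgeR). It was 1.77 without leukemic_28 (adjusted p = 0.672) and 5.54 without leukemic_39 (adjusted p = 0.229). Hba-x, the embryonic alpha-like gene, had 0.0548, 118 and 6.52 CPM in the leukaemic mice (2, 4630 and 257 counts) and 0, 0 and 0.0647 CPM in the preleukaemic mice (0, 0 and 2 counts). It was far above the preleukaemic mice in leukemic_28 and leukemic_39 and within their range in leukemic_26. Its log2 fold change was 10.72 (SE 3.40, adjusted p = 0.0646 from edgeR), and the pooled ratio was 2101-fold with a 95% counting interval from 582 to 17346. DESeq2's Wald test called it (adjusted p = 3.38e-04), and so did edgeR without leukemic_26 (adjusted p = 0.0346), in a range up to 0.175 over 13 alternatives, with 0.0900 without leukemic_39. Without leukemic_28 the log2 fold change was 7.06. Hba-x passed the filter through leukemic_28, leukemic_39 and preleukemic_138, the last of which is outside this comparison. It did not pass when only the compared groups were fitted. With no filter on low counts the adjusted p of Hba-x was 0.0659 from edgeR. Hbb-bh2, a little-expressed gene between Hbb-bh1 and the adult pair, had 11, 33 and 4 counts in leukaemic and 6, 4 and 0 in preleukaemic mice, with a log2 fold change of 1.95 (SE 1.11, adjusted p = 0.255 from edgeR) that was 0.948 without leukemic_28 and 2.43 without leukemic_39.

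Of the adult beta-like genes, Hbb-bt had 7.62, 2.94 and 0.101 CPM in leukaemic mice leukemic_26, leukemic_28 and leukemic_39 and 388, 168 and 97.7 CPM in preleukaemic mice preleukemic_77, preleukemic_224 and preleukemic_40. The groups did not overlap, and the lowest leukaemic level was that of leukemic_39. The mean fell from 218 ± 152 to 3.55 ± 3.80 CPM (SD, n = 3 each), a log2 fold change of -5.94 (SE 1.38, adjusted p = 0.0265 from edgeR). The adjusted p was 0.0639, 0.0662 and 0.0950 without preleukemic_77, preleukemic_224 and leukemic_28. It was 0.0509 when only both compared groups were fitted and 0.0458 without leukemic_39, in a range from 3.80e-05 to 0.0950 over 14 alternatives. In a second table of counts, described below, Hbb-bt had 31.6, 33.8 and 1.20 CPM in the leukaemic mice. The level of Hbb-bt is uncertain, since 58.3% of its 50-base stretches also occur in Hbb-bs and the beta haplotype of each mouse was not tested. Hbb-bs, its neighbour, had 991, 222 and 0.837 CPM in the leukaemic mice and 977, 1513 and 1568 CPM in the preleukaemic mice. The leukaemic mice spread widely, with leukemic_26 inside the preleukaemic range and leukemic_39 at 33 counts. The log2 fold change of -1.74 (SE 1.40) did not pass the test (adjusted p = 0.424 from edgeR) and was -1.13 without leukemic_39 and -3.59 without leukemic_26. Hba-a1, the adult alpha-like gene, had 219, 322 and 112 CPM in the leukaemic and 460.4, 222 and 179.9 CPM in the preleukaemic mice. These ranges overlapped, with a log2 fold change of -0.40 (SE 0.58, adjusted p = 0.672 from edgeR) that turned to 0.13 without preleukemic_77 and was -0.77 without leukemic_28 and -0.07 without leukemic_39. Hba-a2, which did not pass the filter, had 1, 0 and 1 counts in leukaemic and 4, 1 and 0 in preleukaemic mice, and its difference of -0.05 on the log2(CPM + 1) scale gave p = 0.5 in a two-sided exact permutation test that can give no p below 0.1.

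**Figure D2:**
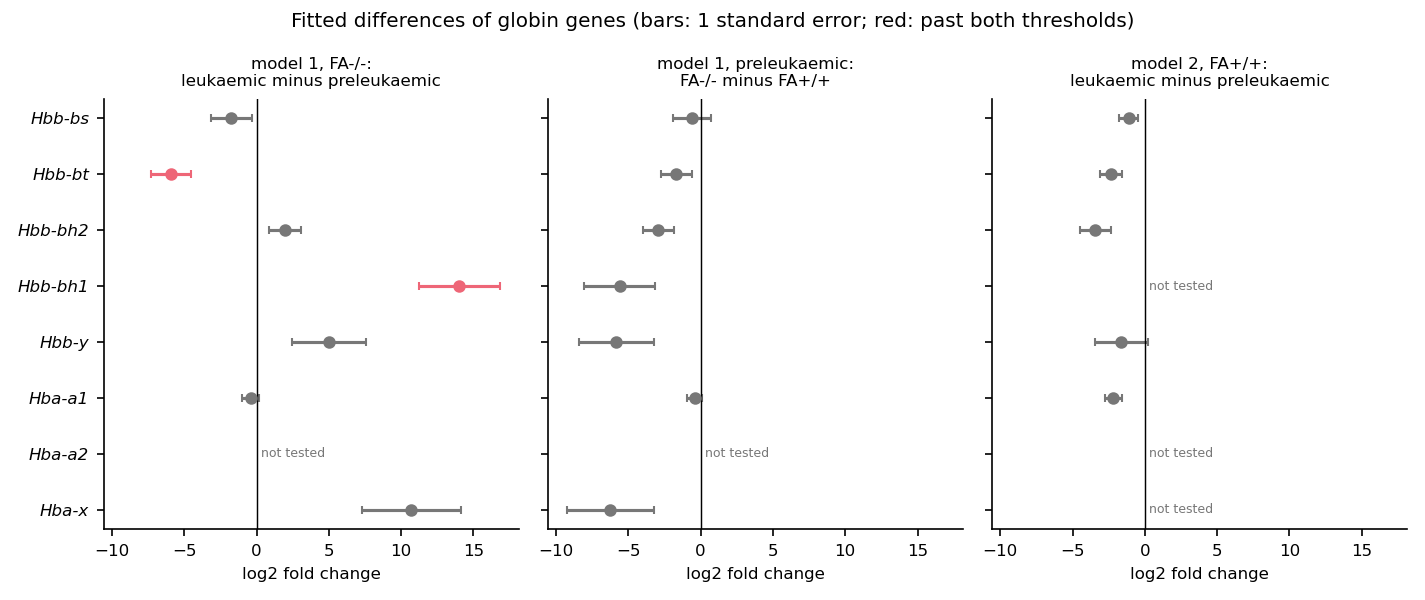
Log2 fold change of each globin gene in the 3 comparisons (x axis; bars, 1 standard error; red, adjusted p under 0.05 and fold change of at least 1.5; FA, TgSpi1FA genotype). Hbb-bh1 at 14.02 and Hbb-bt at -5.94 are called between leukaemic and preleukaemic TgSpi1FA-/- cells, and all members tested in the other comparisons lie below 0.

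Within a library, the share of embryonic genes among the beta-like counts does not depend on the library's scaling. It may depend on how reads that match both adult beta-like genes were counted, which was not tested. Hbb-bh1 and Hbb-y together took 99.9% of the 37096 beta-like counts of leukemic_39 (95% Wilson interval 99.9 to 99.9%), 89.2% of the 82158 of leukemic_28 (89.0 to 89.4%) and 1.62% of the 37061 of leukemic_26 (1.498 to 1.76%). In the preleukaemic TgSpi1FA-/- mice the share lay between 0.00522% (preleukemic_224) and 0.0481% (preleukemic_77). Thus the 3 leukaemic mice were all above the preleukaemic TgSpi1FA-/- mice, and 2 of them carried mainly embryonic beta-like counts. The share of leukemic_26 was below those of the TgSpi1FA+/+ preleukaemic mice preleukemic_138 (8.76%) and preleukemic_633 (2.20%). Hba-x took 26.9% of the alpha-like counts of leukemic_28 (26.2 to 27.5%), 5.52% of those of leukemic_39 (4.90 to 6.21%) and 0.0251% of those of leukemic_26 (0.00687 to 0.0913%). The order of leukemic_28 and leukemic_39 was thus the opposite of that for the beta-like share. Hbb-bh1 had 389 times the counts of Hbb-y in leukemic_39, 48.8 times in leukemic_28 and 45.2 times in leukemic_26.

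Among TgSpi1FA+/+ preleukaemic mice of model 1, preleukemic_138 stood apart, with 3592 embryonic counts among 40999 beta-like counts, or 8.76% (8.49 to 9.04%). The shares of preleukemic_445, preleukemic_479 and preleukemic_451 were 0.0425%, 0.0415% and 0.0130%. In preleukemic_138 the embryonic counts were mostly Hbb-y, with 3248 counts against 344 of Hbb-bh1, a ratio of Hbb-bh1 to Hbb-y of 0.106. Among preleukaemic mice of model 2, preleukemic_633 had 2.20% (2.13 to 2.27%), while preleukemic_663, preleukemic_812 and preleukemic_837 had 0.0164%, 0.00393% and 0.0326%. There Hbb-bh1 prevailed, with 3233 counts against 278 of Hbb-y. The leukaemic mice of model 2 had 0.0233% (leukemic_601), 0.312% (leukemic_606) and 0.00749% (leukemic_921). Hba-x followed, with 1.78% of the alpha-like counts in preleukemic_138 and 0.704% in preleukemic_633. In 7 of the 17 libraries no Hba-x count was found, which allows a share of up to between 0.0182% and 0.430% of their alpha-like counts.

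**Figure D3:**
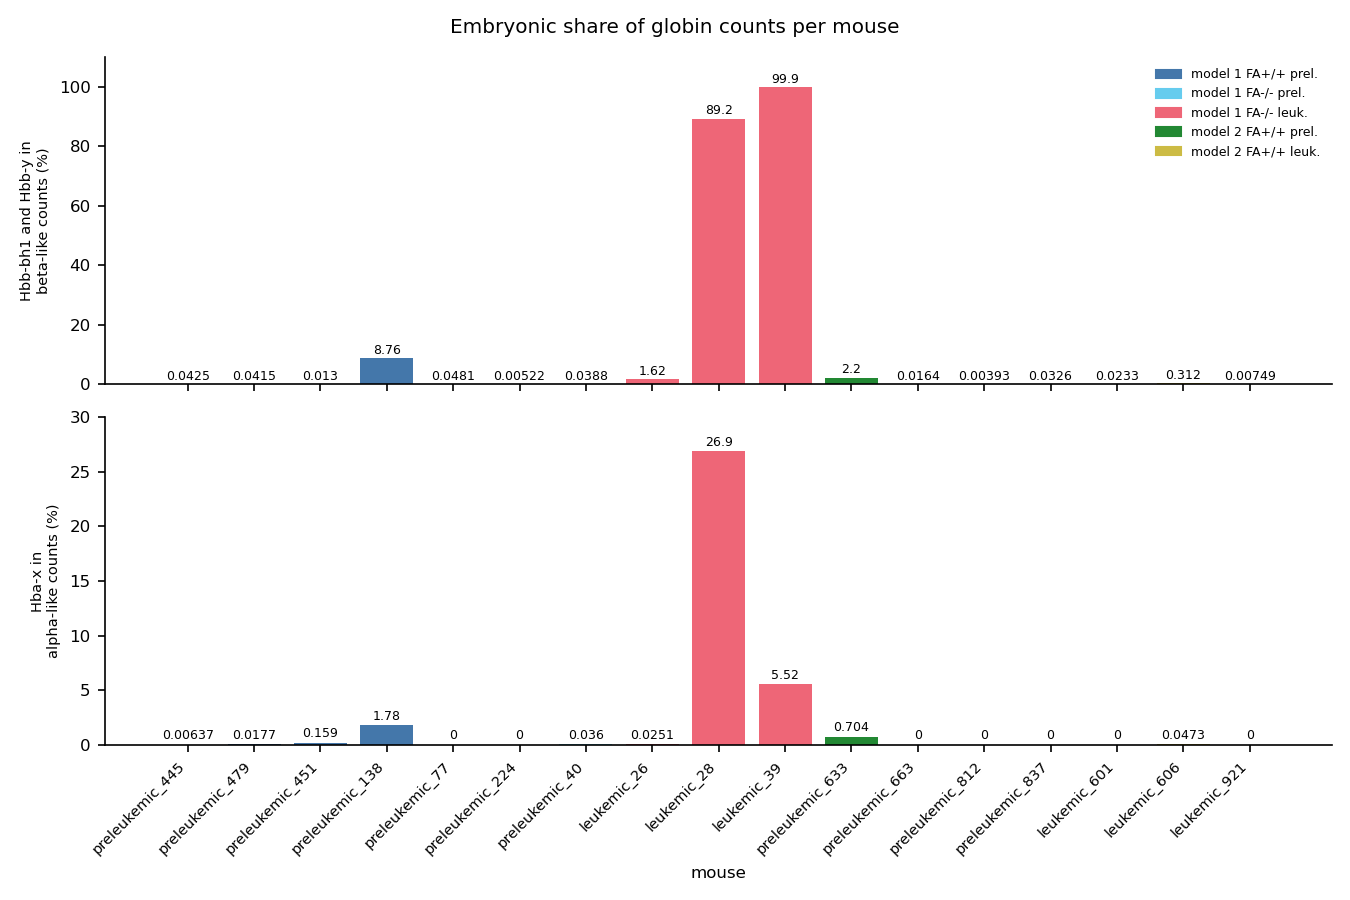
Share of embryonic genes among beta-like counts (top, %) and alpha-like counts (bottom, %) in each mouse, with bars coloured by group. The share of Hbb-bh1 and Hbb-y is 99.9% in leukemic_39 and 89.2% in leukemic_28, and that of Hba-x is 26.9% in leukemic_28.

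Between TgSpi1FA-/- and TgSpi1FA+/+ preleukaemic cells of model 1, a comparison of the Fanca genotype before leukaemia, none of the 7 members tested was called. Of all genes tested, 1 (0.00747%) was called by edgeR and the levels did not overlap for 8.53%. All 7 fitted differences were below 0, with adjusted p from 0.542 to 0.937, and the unadjusted p was under 0.05 for 2 members, Hbb-bh2 and Hbb-bh1. DESeq2's Wald test also called 0 members, and 1.74% of all genes. Hbb-bh2 had 0.197, 0.117 and 0 CPM in preleukemic_77, preleukemic_224 and preleukemic_40 and 0.811, 0.920, 1.35 and 0.199 CPM in preleukemic_445, preleukemic_479, preleukemic_451 and preleukemic_138. It was the only member whose groups did not overlap, with 0.199 CPM in preleukemic_138 just above 0.197 CPM in preleukemic_77 (log2 fold change -2.92, SE 1.10, adjusted p = 0.542 from edgeR). For Hbb-y the fitted difference of -5.84 (SE 2.60, adjusted p = 0.579) rested on preleukemic_138, which had 92.2 CPM where preleukemic_445, preleukemic_479 and preleukemic_451 had 0.842, 1.40 and 0.224, and it was -0.995 without preleukemic_138. Hbb-bh1 had the same order, with 9.77 CPM in preleukemic_138 and 0.686, 0.317 and 0.0641 in the others, and a difference of -5.61 (SE 2.47, adjusted p = 0.573) that was -2.69 without preleukemic_138. Hba-x, with 7.18 CPM in preleukemic_138 and 0.0312 to 0.192 in the others, had a fitted difference of -6.25 (SE 3.01, adjusted p = 0.6003) and did not pass the filter without preleukemic_138.

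The adult genes had wide ranges in both genotypes. Hbb-bs had 2569.8, 2993, 1676 and 968 CPM in preleukemic_445, preleukemic_479, preleukemic_451 and preleukemic_138, against 977 to 1568 in the TgSpi1FA-/- mice, a log2 fold change of -0.60 (SE 1.29, adjusted p = 0.937 from edgeR). Hbb-bt had 1026, 1136, 544 and 93.9 CPM in the same TgSpi1FA+/+ mice and 97.7 to 388 in TgSpi1FA-/- mice (log2 fold change -1.68, SE 1.09, adjusted p = 0.699). Both genes were lowest in preleukemic_138, the mouse with the embryonic counts. Hba-a1 had 490.0, 537, 121 and 397 CPM in the TgSpi1FA+/+ mice (log2 fold change -0.43, SE 0.54, adjusted p = 0.878). Hba-a2 had at most 4 counts in each mouse (exact permutation test, p = 0.914, n = 3 and 4).

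In model 2, where leukaemic TgSpi1FA+/+ cells were compared with preleukaemic ones, 5 members passed the filter and none was called by edgeR. Of the 12970 genes tested none (0%) was called, while the unadjusted p was under 0.05 for 2587, and 20.1% did not overlap between the groups. DESeq2's Wald test called 2 members and 12.5% of the 9601 genes it gave an adjusted p. All 5 fitted differences were below 0, and 2 of the 5 members did not overlap. Hba-a1 had 17.9, 107 and 70.8 CPM in leukaemic mice leukemic_601, leukemic_606 and leukemic_921 and 252, 236, 279 and 409 CPM in preleukaemic mice preleukemic_633, preleukemic_663, preleukemic_812 and preleukemic_837. Each leukaemic mouse was below each preleukaemic one (log2 fold change -2.17, SE 0.56, adjusted p = 0.162 from edgeR). DESeq2's Wald test called this difference (adjusted p = 0.00337), in a range up to 0.404 over 13 alternatives. Hbb-bt had 112, 105 and 462 CPM in leukaemic and 289, 1081, 1093 and 2130.5 CPM in preleukaemic mice, with leukemic_921 above preleukemic_633 (log2 fold change -2.34, SE 0.79, adjusted p = 0.183 from edgeR and 0.0151 from DESeq2, up to 0.414 over 13 alternatives). Hbb-bs had 1869, 818 and 1812 CPM in leukaemic and 3649, 903, 6356 and 2121 CPM in preleukaemic mice, with overlapping groups (log2 fold change -1.12, SE 0.64, adjusted p = 0.361). In each leukaemic mouse of model 2 Hbb-bs had the most counts of the 8 genes, whereas in leukemic_28 and leukemic_39 of model 1 Hbb-bh1 did.

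Among the embryonic genes of model 2, Hbb-bh1 had 0.0770, 1.24 and 0.170 CPM in leukaemic and 81.5, 0.250, 0.213 and 0.198 CPM in preleukaemic mice. It did not pass the filter on low counts, and its difference of -1.31 on the log2(CPM + 1) scale gave p = 0.629 in a two-sided exact permutation test (n = 3 and 4; the smallest possible p is 0.0571). Hba-x had 0 counts in 5 of the 7 mice, 2 counts in leukemic_606 and 71 in preleukemic_633 (exact permutation test, p = 1). Hbb-y had 0.385, 1.65 and 0 CPM in leukaemic and 7.01, 0.0750, 0.0800 and 1.19 CPM in preleukaemic mice (log2 fold change -1.61, SE 1.84, adjusted p = 0.658), and its sign turned without preleukemic_633, to 0.60. Hbb-bh2 had 0.385, 0.432 and 0.227 CPM in leukaemic and 2.27, 1.95, 10.3 and 0.495 CPM in preleukaemic mice, without overlap (log2 fold change -3.42, SE 1.06, adjusted p = 0.173).

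Whether the leukaemic change of a member differed between the models was tested in 1 fit of all 17 libraries, in which 4.61% of 14597 genes were called. Of the 7 members tested, Hbb-bh1 was called, with a change in model 1 that exceeded that in model 2 by 19.30 on the log2 scale (SE 4.27, adjusted p = 0.0338 from edgeR). Hbb-bh1 and Hba-x had not passed the filter in model 2 alone and entered this fit through the model 1 mice in which they were high. With no filter the adjusted p of Hbb-bh1 was 0.0423. In model 2 the mice other than preleukemic_633 had at most 1.24 CPM of Hbb-bh1, and without preleukemic_633 the difference was 12.83 (adjusted p = 0.0523). The adjusted p also exceeded 0.05 without preleukemic_77, preleukemic_224, preleukemic_40, leukemic_28, leukemic_39, leukemic_601, leukemic_606 and leukemic_921, where it lay between 0.0580 and 0.0858. Hba-x (15.12, SE 4.45, adjusted p = 0.0598) and Hbb-bh2 (5.36, SE 1.63, adjusted p = 0.0642) were just outside the threshold, and DESeq2's Wald test called both (adjusted p = 0.00559 and 0.00641), where it called 14.9% of all genes. Of 20 alternatives, the adjusted p was not under 0.05 in 17 for Hba-x and in 18 for Hbb-bh2. It reached 0.999989 for Hba-x, whose difference ranged from 8.02 to 17.86, and 0.158 for Hbb-bh2. The difference was -3.62 for Hbb-bt (SE 1.48, adjusted p = 0.140), 6.60 for Hbb-y (SE 3.29, adjusted p = 0.221), 1.74 for Hba-a1 (SE 0.85, adjusted p = 0.212) and -0.62 for Hbb-bs (SE 1.61, adjusted p = 0.842).

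The 42 genes listed as regulators of the globin clusters comprise erythroid activators, repressors of the embryonic genes with their corepressor complexes, and the fetal RNA-binding proteins of the LIN28B and IGF2BP families. Between leukaemic and preleukaemic TgSpi1FA-/- cells 38 were tested and 10 were called, 2 higher and 8 lower, where 13.3% of all genes were called, 6.82% higher and 6.49% lower, with a median log2 fold change of -0.28 against -0.00120 over all genes. Bcl11a, the repressor of embryonic and fetal globin genes, had 175, 70.6 and 45.7 CPM in leukaemic mice leukemic_26, leukemic_28 and leukemic_39 and 283, 352 and 261 CPM in preleukaemic mice preleukemic_77, preleukemic_224 and preleukemic_40. All leukaemic mice were below all preleukaemic ones (log2 fold change -1.62, SE 0.45, adjusted p = 0.0444 from edgeR), and the adjusted p exceeded 0.05 in 7 of 14 alternatives, which included leaving out preleukemic_77 (0.0938), preleukemic_224 (0.126), preleukemic_40 (0.0773), leukemic_28 (0.150) and leukemic_39 (0.101). Zbtb7a, which encodes a further repressor, had a log2 fold change of -1.50 (SE 0.19, adjusted p = 0.00535), and Klf1, the activator of adult beta-globin and of Bcl11a, fell by 1.27 (SE 0.18, adjusted p = 0.00626). Myb, which keeps progenitors proliferating, fell by 1.39 (SE 0.24, adjusted p = 0.0119). The other regulators that fell were Nfix (-1.70), Ikzf1 (-1.20), Lmo2 (-1.01) and Nr2c2 (-0.75), whose adjusted p lay between 0.0112 and 0.0415. Of 14 alternatives, the call was lost in 9 for Nr2c2, which included leaving out each of the 6 mice, in 6 for Lmo2, in 5 for Nfix and in 0 for Ikzf1. Without leukemic_39, 5 regulators and 5.16% of all genes were called, since Bcl11a, Hic2, Nfix (adjusted p = 0.0777), Lmo2 (0.0860) and Nr2c2 (0.0836) were not, and without leukemic_28 the adjusted p of Myb was 0.0539. Gata1 (-0.33, adjusted p = 0.170) and Sox6 (-0.45, adjusted p = 0.526) were not called, Hmga2 had at most 1 count in each library of model 1, and Ahsp had no row in the tables used.

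The 2 regulators that rose were Igf2bp1 and Hic2. Igf2bp1, an RNA-binding protein of fetal tissues, had 113, 282 and 350.3 CPM in leukemic_26, leukemic_28 and leukemic_39 and at most 1 count in each of the 7 preleukaemic libraries of model 1. The pooled ratio to the preleukaemic TgSpi1FA-/- mice was 12007-fold (95% counting interval 3324 to 99146; adjusted p = 1.498e-04 from edgeR, and 5.21e-04 without leukemic_39). In model 2 it had 98.3 CPM in preleukemic_633 and 0 to 4 counts in the other 6 mice, so that its levels were high in the same model 2 mouse as those of Hbb-bh1. In preleukemic_138, with 92.2 CPM of Hbb-y, Igf2bp1 had 1 count. Hic2, a repressor of Bcl11a, had 69.5, 111 and 125 CPM in leukemic_26, leukemic_28 and leukemic_39 and 9.03, 6.43 and 13.6 CPM in preleukemic_77, preleukemic_224 and preleukemic_40, a log2 fold change of 3.39 (SE 0.74, adjusted p = 0.0223 from edgeR). The adjusted p exceeded 0.05 in 5 of 14 alternatives, without preleukemic_77 (0.0670), preleukemic_224 (0.0830), preleukemic_40 (0.0526), leukemic_28 (0.0626) and leukemic_39 (0.0535). Outside these groups Hic2 had 56.0 CPM in preleukemic_138, against 17.5, 15.0 and 6.12 in preleukemic_445, preleukemic_479 and preleukemic_451, and 69.7 CPM in preleukemic_633, against 7.85, 7.76 and 2.62 in preleukemic_663, preleukemic_812 and preleukemic_837. In both preleukaemic groups of 4, the mouse with the embryonic globin counts thus had the highest Hic2 level, and Bcl11a was lowest in the same mice, at 172 and 142 CPM. The leukaemic mice of model 2 had 6.002, 13.5 and 3.12 CPM of Hic2 and 111, 52.5 and 141 CPM of Bcl11a. There leukemic_606 had a lower level of Bcl11a than leukemic_28 and an embryonic beta-like share of 0.312%. However, leukemic_606 and leukemic_28 differ in strain, genotype and protocol. The preleukaemic median of Bcl11a was also lower in model 2, at 170.6 CPM, than in the TgSpi1FA-/- (283.5 CPM) and TgSpi1FA+/+ mice (304.7 CPM) of model 1. The mice set side by side here were picked for their globin counts, and a link of Hic2 and Bcl11a with the embryonic genes was not tested.

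Lin28b, a fetal regulator of let-7 microRNAs, was high in mice with and without embryonic globin counts. It had 52.9, 73.8 and 27.8 CPM in leukemic_26, leukemic_28 and leukemic_39 but also 48.0 and 67.4 in preleukemic_77 and preleukemic_40, 34.0 and 40.7 in preleukemic_445 and preleukemic_479 and 46.5 in preleukemic_663, and 0.909 and 3.35 CPM in preleukemic_138 and preleukemic_633 (leukaemic against preleukaemic TgSpi1FA-/- cells, log2 fold change 0.42, adjusted p = 0.907 from edgeR). Igf2bp3 likewise had 44.1 to 115 CPM in some mice of each group and at most 0.702 CPM in others of all but the leukaemic TgSpi1FA-/- group (log2 fold change 1.61, adjusted p = 0.604). In model 2 none of 37 regulators tested was called by edgeR, where 13 had an unadjusted p under 0.05 and DESeq2 called 7, against 12.5% of all genes. There 35 of 37 fitted differences were below 0, with a median of -0.57 against -0.03 over all genes, and Bcl11a (-0.79, adjusted p = 0.243), Zbtb7a (-0.95, adjusted p = 0.194) and Gata1 (-0.62, adjusted p = 0.162) were among them. The difference of the leukaemic changes between the models was called for Igf2bp1 and for Zfpm1, the GATA1 cofactor FOG1 (1.45, SE 0.35, adjusted p = 0.0365 from edgeR). The call of Zfpm1 was lost in 9 of 20 alternatives, up to 0.0857. Igf2bp1 entered this fit through the leukaemic TgSpi1FA-/- mice in which it was high, and in model 2 it was high in preleukemic_633 alone. Between the preleukaemic genotypes none of 38 was called, with 3 at an unadjusted p under 0.05 and 0 calls by DESeq2.

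**Figure D4:**
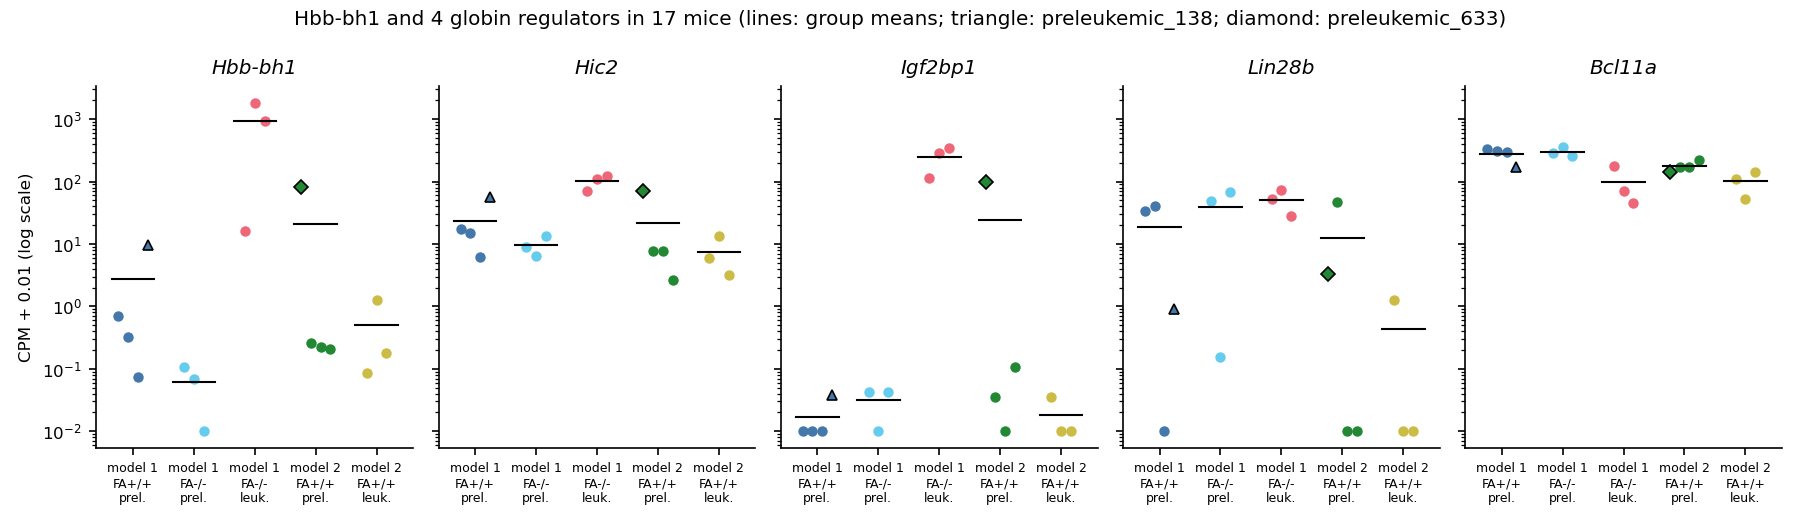
Levels of Hbb-bh1, Hic2, Igf2bp1, Lin28b and Bcl11a in 17 mice, as CPM + 0.01 on a log axis, by group (prel., preleukaemic; leuk., leukaemic; FA, TgSpi1FA genotype). Points are mice and lines are group means; preleukemic_138 (triangle) and preleukemic_633 (diamond) have the highest Hic2 level of their groups, at 56.0 and 69.7 CPM.

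Other erythroid genes and markers of other cells moved beside the globin genes. Of 20 late erythroid genes, all tested, 4 (Ank1, Ermap, Rhd and Tspo2) were called lower in leukaemic TgSpi1FA-/- cells and none higher, against 13.3% of all genes called and 6.49% called lower. Their median log2 fold change was -0.76 and their summed level ranged from 2847 to 4022 CPM in leukaemic and from 6408 to 9945 CPM in preleukaemic TgSpi1FA-/- mice. Without leukemic_39, 2 of the 20 were called, their median was -0.41 and the leukaemic sums were 3788 and 4022 CPM. The 11 erythroid markers of the label, of which 2 were called lower with and without leukemic_39, summed to 2204 to 4033 CPM in leukaemic and 4721 to 4943 CPM in preleukaemic TgSpi1FA-/- mice. In model 2 the median of the late erythroid genes was -1.18, with none called by edgeR, 8 at an unadjusted p under 0.05 and summed levels of 1124 to 3684 CPM in leukaemic against 3566 to 8953 CPM in preleukaemic mice. In the list of megakaryocyte markers, 1 of 5 tested was called higher in leukaemic TgSpi1FA-/- cells, Itga2b (adjusted p = 0.00472 from edgeR, and 0.0154 without leukemic_39). The list summed to 173 to 274 CPM against 45.6 to 59.8 CPM in preleukaemic TgSpi1FA-/- cells, with Itga2b the most abundant in both. The TgSpi1FA+/+ preleukaemic mice of model 1, at 59.7 to 200.8 CPM, overlapped the leukaemic mice. Of 6 endothelial and stromal markers, 2 were tested and Kdr, the VEGF receptor, was called higher (22.9 ± 14.0 against 0.465 ± 0.163 CPM, SD, n = 3 each, adjusted p = 0.00770 from edgeR, and 0.0212 without leukemic_39). The other, the collagen gene Col1a2, had 2.03 ± 3.07 against 101.0 ± 149 CPM (SD, n = 3 each) without overlap, and was not called (log2 fold change -5.64, adjusted p = 0.0840 from edgeR, and 0.179 without leukemic_39). The summed levels of this list, 8.63 to 35.6 and 10.5 to 277 CPM, overlapped. Granulocyte, macrophage and B cell markers summed to at most 0.603, 3.70 and 0.521 CPM in the leukaemic TgSpi1FA-/- mice, T cell markers to 3.86 to 5.54 CPM against 0.819 to 1.49 CPM, with Lck called higher (adjusted p = 0.0293 from edgeR, and 0.0652 without leukemic_39) and Cd3e at or under 3 counts in each. Mast cell markers summed to 45.1 to 73.6 CPM against 5.64 to 40.7 CPM, mostly Hdc, the histidine decarboxylase (52.2 ± 19.9 against 16.5 ± 19.1 CPM, SD, n = 3 each, adjusted p = 0.357). None of the 5 mast cell markers tested was called by edgeR, 1 had an unadjusted p under 0.05, and 3 of the 5 had fitted differences below 0, with Ms4a2 at -5.05 (adjusted p = 0.135). In the TgSpi1FA+/+ preleukaemic mice of model 1 the mast cell markers summed to 207.9 CPM in preleukemic_138, above each leukaemic TgSpi1FA-/- mouse. The other mice of that group had 18.0 to 21.3 CPM. In model 2 the mast cell markers reached 159 to 211 CPM in leukaemic and 31.2 to 94.9 CPM in preleukaemic mice. The marker genes named here were picked after their values were seen, and the part of these markers in the globin differences was not tested.

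The split of the adult pair also varied from mouse to mouse. Hbb-bt took 28.5%, 27.5%, 24.5% and 8.84% of the summed Hbb-bs and Hbb-bt counts in preleukemic_445, preleukemic_479, preleukemic_451 and preleukemic_138 and 28.4%, 10.0% and 5.87% in preleukemic_77, preleukemic_224 and preleukemic_40. In the leukaemic mice leukemic_26 and leukemic_28 the share was 0.763% and 1.31%, and in leukemic_39, with 37 counts in all, it was 10.8% (95% Wilson interval 4.29 to 24.7%). In model 2 it ranged from 5.66% (leukemic_601) to 20.3% (leukemic_921) in leukaemic and from 7.33% (preleukemic_633) to 54.5% (preleukemic_663) in preleukaemic mice. With 381 stretches of 50 bases shared by both genes, how reads that match both were assigned bears on these shares and was not tested.

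A second table of counts held 7 of the mice of model 1, with 35497594 to 171572736 counts per library, and its relation to the first is not given in the sources used here. The 4 highest embryonic beta-like shares were in the same order as in the first table, with 99.3% in leukemic_39, 83.4% in leukemic_28, 6.34% in preleukemic_138 and 0.877% in leukemic_26. The low shares of preleukemic_445, preleukemic_479 and preleukemic_451 were 0.00949%, 0.0474% and 0.102%, the opposite order to that of the first table. The adult pair and Hba-x differed more. Hbb-bt was 4.15, 11.5 and 11.8 times higher in the second table in leukemic_26, leukemic_28 and leukemic_39, at 31.6, 33.8 and 1.20 CPM, and lay below the 443 to 2025 CPM of the 4 TgSpi1FA+/+ mice there. Hbb-bs in leukemic_39 had 14.9 CPM against 0.837 CPM in the first table. Hba-x in preleukemic_138 had 228 CPM in the second and 7.18 CPM in the first table, so that its share of alpha-like counts was 37.2% in place of 1.78%. Hbb-y of the same mouse differed less, with 109 and 92.2 CPM.

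**Figure D5:**
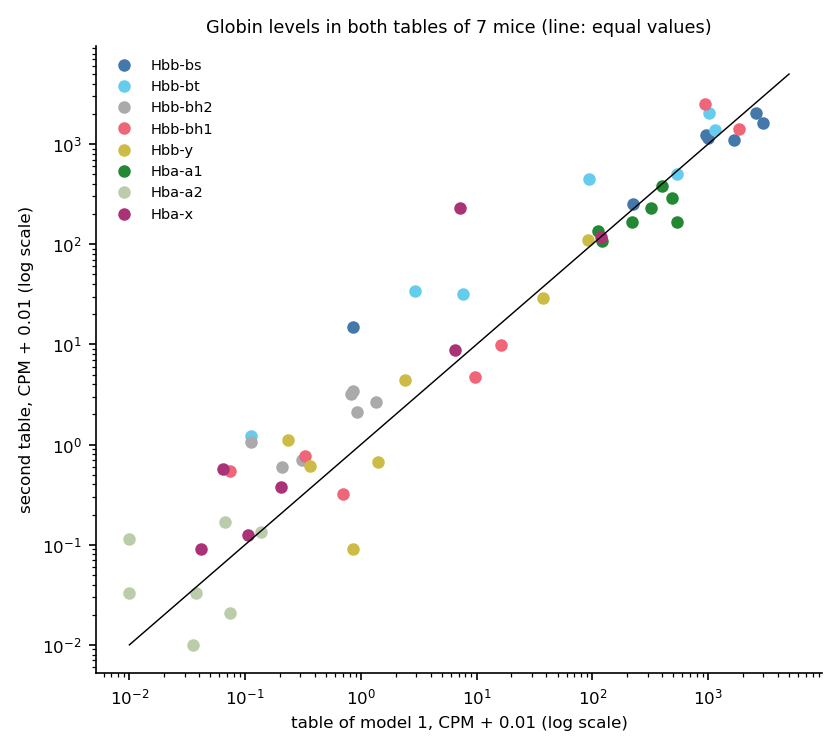
Levels of the 8 globin genes in 7 mice of model 1 in the first (x axis) and the second table (y axis), as CPM + 0.01 on log axes; each point is 1 gene in 1 mouse and the line marks equal values. Hba-x of preleukemic_138 lies farthest above the line among the points over 1 CPM in the first table, at 7.18 and 228 CPM.

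The genes most like Hbb-bh1 over the 10 libraries of model 1, by Pearson's r of log2(CPM + 1), were Fgf3 (0.993), Creb3l1 (0.989), Kank2 (0.987), Trbj1-3 (0.985) and Pde10a (0.984). Without leukemic_28 and leukemic_39 the values were between 0.883 and 0.995, and over the 7 libraries of model 2 they were 0.980 for Pde10a, 0.849 for Creb3l1, 0.758 for Kank2 and 0.550 for Fgf3. For Hbb-bs they were Slc39a9 (0.993), Was (0.993), Ccdc88b (0.991), Elf4 (0.990) and Acsl5 (0.990), with 0.642 to 0.964 without leukemic_39 and leukemic_28 and 0.121 to 0.506 in model 2. Spearman's rho was between 0.588 and 0.964 for the first list and between 0.806 and 0.939 for the second. These values describe libraries that share a fit, a scaling and their groups, and the genes were picked for the highest values, so they carry no test.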

How the data were processed

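RNA-seq read counts were analysed for 10 mice of model 1 and 7 of model 2, 1 library per mouse. The authors deposited raw counts per Ensembl gene. Their processing notes name bcl2fastq 2.17.1.14, STAR 2.5.3a, HTSeq 0.6.1p1 and the builds mm10 and GRCm38, with no role, and the strand setting and the treatment of reads that match several genes are not given in the sources used here. A further table identical to that of model 2 was not used, and a second table of 7 mice of model 1 served as an alternative only.

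Counts were fitted with edgeR 4.0.16 in R 4.3.3 (filterByExpr by group, TMM, quasi-likelihood test), with all 10 libraries of model 1 in 1 fit, all 7 of model 2 in another, and all 17 for the difference between the models. A gene was called at a Benjamini-Hochberg adjusted p under 0.05 over all genes tested and a fold change of at least 1.5. The procedure was first tested on simulated data. Members that failed the filter were compared by two-sided exact permutation tests on log2(CPM + 1) with SciPy 1.17.1. Intervals are Wilson intervals for shares and exact Poisson intervals for pooled ratios, at 95%, and cover counting error only. Nothing says that libraries of a group come from separate litters, so p-values measure the spread between these mice.

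The members and the gene lists were chosen with earlier results of these data known. The text names all 8 members, 11 regulators, other regulators when called, and for likeness the 5 genes of highest Pearson's r. Alternatives were DESeq2 1.42.0 (test, or size factors alone), other filters and scalings, only the compared groups, no fold change minimum, preleukemic_445 and preleukemic_479 summed, the second table, and leaving out each mouse. The level of 1 megakaryocyte marker is not reported here.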

Additional observations from a re-analysis of the deposited data

Results flagged for a closer look

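In 2 preleukaemic groups of 4 mice, 1 mouse lay far from the other 3. Its gap to the nearest of them, divided by the range of all 4, exceeded Dixon's 95% critical value. In TgSpi1FA+/+ cells of model 1 this was preleukemic_138, for Hbb-bh1 (9.77 CPM), Hbb-y (92.2 CPM), Hba-x (7.18 CPM), the embryonic share of beta-like counts (8.76%) and that of alpha-like counts (1.78%). In model 2 it was preleukemic_633, for Hbb-bh1 (81.5 CPM), Hbb-y (7.01 CPM), Hba-x (1.79 CPM), the beta-like share (2.20%) and the alpha-like share (0.704%). These are 10 of 26 values examined, and the 5 values of a mouse are not independent of each other. The critical value assumes normally distributed values, which was not tested for these CPM and shares, so no rate by chance is given. For Hba-x and the alpha-like share in model 2, the other 3 mice had 0 counts of Hba-x, which fixes the ratio at 1. The leukaemic change of Hbb-bh1 also differed between the models, by 19.30 on the log2 scale (SE 4.27, adjusted p = 0.0338 from edgeR). It was 12.83 without preleukemic_633 (adjusted p = 0.0523), and the call was lost without any of 9 of the 13 mice of these groups. Hbb-bh1 had not passed the filter in model 2 alone and entered this fit through the model 1 mice in which it was high. Strain, genotype and protocol also differ between the models and cannot be told apart.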

How the results depend on the processing

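Of the alternatives to the log2 fold changes, 646 kept direction and side of the threshold, 59 were no longer past it, 10 came past it and 3 turned sign. Of the 646, 49 came from the alternative with no fold change minimum, which repeats the main fit and cannot lose a call. Those that turned sign were Hba-a1 between leukaemic and preleukaemic TgSpi1FA-/- cells (range -0.77 to 0.13, the latter without preleukemic_77), Lin28b in the same comparison (-0.15 without preleukemic_224, up to 1.09) and Hbb-y in model 2 (-3.41 to 0.60, the latter without preleukemic_633). None of the 3 was past the threshold in any of these fits. Of the globin members, 2 were called between leukaemic and preleukaemic TgSpi1FA-/- cells, 1 with only the compared groups and 0 to 3 when a mouse was left out (0 without preleukemic_77, preleukemic_224 or leukemic_28). The 10 regulators called there became 5 to 9 (5 without preleukemic_224, leukemic_28 or leukemic_39). In model 2, DESeq2 called 2 members, 7 regulators and 12.5% of all genes where edgeR called 0, and leaving out a mouse gave 0 members. For the difference between the models, 1 member was called by edgeR, 3 by DESeq2 and 0 to 2 without a mouse. In the second table, the mean share of Hba-x among alpha-like counts of TgSpi1FA+/+ preleukaemic mice was 9.41% (0.490% in the first), that of Hbb-bt in the adult pair 38.5% (22.3%), and the ratio of alpha-like to beta-like counts in leukaemic TgSpi1FA-/- mice 0.133 (0.184). There the mean CPM of Hba-x in TgSpi1FA+/+ preleukaemic mice was 57.2 (1.88 in the first), that of Hbb-bt in leukaemic TgSpi1FA-/- mice 22.2 (3.55), and that of Hbb-bh2 2.13 and 1.705 in these groups (0.819 and 0.415). The mean Hbb-bt share in leukaemic TgSpi1FA-/- mice was 7.34% (4.29%). The cause was not tested. All other counts of called members and regulators stayed within 1.5 times. Marker lists and genes without each mouse were added after seeing the data, and Lck was not called without any of 5 of the 6 mice. Summing preleukemic_445 and preleukemic_479, and fitting only the compared groups, do not apply to model 2, and Hba-x could not be tested between genotypes without preleukemic_138. No paired analysis was possible because the groups share no replicate numbers. Groups of 3 or 4 mice, low counts of Hba-a2, Hba-x and Hbb-bh2 and shared stretches of the adult genes limit the precision.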

Other observations

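Among the other globin rows, Hbq1b, a theta-like gene of the alpha cluster, was the most abundant in each of the 5 groups, with a mean of 2.94 CPM in TgSpi1FA+/+ and 0.535 CPM in TgSpi1FA-/- preleukaemic mice of model 1, 1.0004 CPM in the leukaemic mice of model 1 and 3.82 and 2.13 CPM in the preleukaemic and leukaemic mice of model 2. It was the only gene of that list tested, and it was called in no comparison (adjusted p from 0.417 to 0.625 from edgeR).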
